A study of Mus musculus with 4 samples.

Results

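The 10 genes described here encode the subunits of the transcription factor NF-kappa B and proteins grouped here as its inhibitors. They were taken by symbol from the gene list of the deposited matrices, so 10 of the 31053 listed genes were members, and all 10 were found. Nfkb1, Rel and Rela were the canonical subunits, Nfkb2 and Relb the non-canonical subunits, and Nfkbia, Nfkbie, Nfkbid, Nfkbiz and Tnfaip3 the inhibitors. The last group is a grouping of genes and not a measured effect on NF-kappa B. Their UMIs (unique molecular identifiers, which mark single RNA molecules) were followed over cell classes and days in leukocytes of the C57/BL6 mouse brain after stroke. A cerebral artery had been blocked for a time and reopened (transient middle cerebral artery occlusion, tMCAO). CD45high cells, that is cells rich in a surface protein of leukocytes, were sorted out of the ischemic hemispheres 14 or 5 days later, with 2 libraries of day 14 and 2 libraries of day 5. All 4 libraries came from operated mice of the same strain, with no sham or untreated group among them, and the labels do not say how many mice stand behind a library. The p-values below therefore rest on the spread between libraries, which may be technical. That spread was estimated by sharing information over genes, so a p-value does not measure the spread of a single gene alone.

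NF-kappa B dimers rest in the cytoplasm, bound by inhibitors of the I-kappa B family. In the canonical pathway, receptors of the tumour necrosis factor and Toll-like families activate a kinase complex that marks the inhibitor for degradation, and dimers such as p50 with RelA or c-Rel enter the nucleus. In the non-canonical pathway, receptors such as CD40 stabilise the kinase NIK, the p100 product of Nfkb2 is cut to p52, and p52 pairs with RelB. Several of the genes that these dimers switch on encode their own inhibitors, which closes a negative feedback loop, and in the brain the pathway is known for its part in the inflammatory response of microglia and infiltrating leukocytes.

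The stretches before the transcription starts of several members are shown first, because the feedback loop is known to act through kappa B sites there. RefSeq sequences for GRCm38.p6 held 7 of the 10 members, and Nfkb1, Relb and Nfkbiz had no entry. The kappa B decamer consensus was searched on both strands in the 250 bases before each start. It was found before at least 1 start of 6 of these 7 members (Nfkb2, Rel, Nfkbia, Nfkbie, Nfkbid and Tnfaip3) and not before the start of Rela. By start, 8 of the 12 listed for members held a match, and 3.9% of all 32851 starts in the same table did. By gene, the share over all 27025 genes was 4.46%. Capitals mark the matches, which are descriptions of the letters and not measured binding sites. Nfkbia had its match at position -29 from the start, Nfkbie at -106, and Rel had overlapping matches at -92 and -91. The line of Rel below leaves out the base next to its start, which these positions count. The lines give, 5′ to 3′, the bases before the start of Nfkbia (chr12:55492648-55492897, minus strand), of Nfkbie (chr17:45555450-45555699, plus strand) and of Rel (chr11:23770971-23771219, minus strand).
Nfkbia: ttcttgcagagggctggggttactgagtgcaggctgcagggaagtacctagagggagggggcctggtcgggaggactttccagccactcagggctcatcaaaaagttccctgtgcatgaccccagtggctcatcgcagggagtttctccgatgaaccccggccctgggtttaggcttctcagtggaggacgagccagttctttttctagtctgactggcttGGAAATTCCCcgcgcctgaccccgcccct
Nfkbie: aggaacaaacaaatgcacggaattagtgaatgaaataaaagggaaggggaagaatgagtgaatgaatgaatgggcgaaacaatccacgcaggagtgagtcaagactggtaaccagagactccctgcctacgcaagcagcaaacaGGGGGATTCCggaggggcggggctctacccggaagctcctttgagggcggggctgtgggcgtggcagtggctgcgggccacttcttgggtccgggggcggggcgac
Rel: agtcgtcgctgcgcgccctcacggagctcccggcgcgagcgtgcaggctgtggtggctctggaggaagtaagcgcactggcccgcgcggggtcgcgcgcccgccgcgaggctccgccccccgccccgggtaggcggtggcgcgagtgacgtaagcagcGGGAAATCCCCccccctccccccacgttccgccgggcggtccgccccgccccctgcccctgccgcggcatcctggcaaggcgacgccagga

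For the other members with a match, windows of 30 bases around 1 match are shown, so that the decamers can be compared. Nfkb2 had matches before each of its 3 listed starts (windows at chr19:46304688-46304717, chr19:46305449-46305478 and chr19:46305695-46305724, plus strand). The windows of Tnfaip3 (chr10:19015411-19015440, minus strand) and Nfkbid (chr7:30422170-30422199, plus strand) lie before start 1 and start 2 of these genes.
Nfkb2, start 1: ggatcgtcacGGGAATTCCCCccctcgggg
Nfkb2, start 2: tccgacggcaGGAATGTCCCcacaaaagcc
Nfkb2, start 3: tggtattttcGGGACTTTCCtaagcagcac
Tnfaip3: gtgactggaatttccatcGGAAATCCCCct
Nfkbid: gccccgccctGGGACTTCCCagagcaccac

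Of 10925 barcodes, 10265 cells were used, between 2181 and 3308 per library, and the libraries held between 9288054 and 13610119 UMIs. Ptprc, which encodes CD45, was present in every library, at 356 and 295 counts per 1e6 UMIs on day 14 and 228 and 217 on day 5. Between 5 and 16 barcodes were shared by any pair of libraries. Cells were clustered without the 10 members, and 23 clusters gave 12 classes named from marker genes, with 5 clusters left unnamed. Of these classes, 11 had 20 or more cells in every library and were tested, while border-associated macrophages, with 11 cells in each day 14 library, were not. Day 5 matrices name a software version in their header and day 14 matrices name none, so the day and any difference in upstream processing cannot be told apart. The shallowest barcodes held 1180 and 1317 UMIs on day 14, against 500 and 505 on day 5, so the shallowest cells came from day 5 only.

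Levels are given as CPM, the UMIs of a gene as a share of all UMIs of the same class and library, scaled to counts per 1e6. They count tags at the 3′ end of transcripts and are compared here only within a gene. The 10 members fell into 2 descriptive patterns over the 11 classes. Rel, Rela, Nfkb2, Relb and Nfkbie were highest in mature dendritic cells, the Ccr7-expressing cells that carry antigen to lymph nodes. Nfkb1, Nfkbia, Nfkbid, Nfkbiz and Tnfaip3 were highest in gamma delta T or innate lymphoid cells (gdT/ILC), early lymphocyte sources of interleukin 17 in the injured brain. This order is by the mean over the 4 libraries, and for Nfkbia and Nfkbiz it rested on the day 5 libraries, with 23 and 22 gdT/ILC. On day 14 alone, Nfkbia averaged 2734 CPM in neutrophils, 1808 in mature dendritic cells and 1495 in gdT/ILC. Nfkbiz averaged 287 CPM on day 14 in neutrophils, 262 in microglia, 166 in other conventional dendritic cells and 151 in gdT/ILC.

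Relb, the partner of p52, had 1205 and 1037 CPM in mature dendritic cells on day 14, and 951 and 789.6 on day 5 (mean 996 ± 173, SD, n = 4 libraries). The next class, other conventional dendritic cells, averaged 107 ± 46.3, and the lowest, plasmacytoid dendritic cells, 29.9 ± 11.9. No library of another class came near the lowest mature value, while all neighbouring classes from the second place down overlapped.

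Nfkb2, the precursor of p52, had the same order at its top. Mature dendritic cells averaged 285 ± 64.4 CPM and other conventional dendritic cells 77.7 ± 30.7, without overlap between them. B cells followed with 69.0 ± 19.9, and every further neighbour overlapped.

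Rel encodes c-Rel, a subunit known for its role in lymphocytes and dendritic cells. It averaged 529 ± 134 CPM in mature dendritic cells, 214 ± 42.4 in B cells and 148 ± 22.4 in other conventional dendritic cells. The mature class did not overlap with the B cells, whereas B cells and other conventional dendritic cells did overlap. Rela encodes p65, the subunit with a strong activation domain. Its class means ran between 28.0 ± 21.5 in B cells and 96.9 ± 19.0 in mature dendritic cells, with every neighbour overlapping.

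Nfkb1, the precursor of p50, averaged 236 ± 172 CPM in gdT/ILC. That mean was carried by day 5 library 1, which had 493 CPM from 23 cells, against 131 to 175 in the other 3 libraries. Other conventional dendritic cells followed with 172 ± 29.8, and all neighbours in the order overlapped.

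Among the inhibitors, Nfkbia, which encodes I-kappa B alpha, averaged 2432 ± 1172 CPM in gdT/ILC and 2074 ± 794 in neutrophils. Type 1 conventional dendritic cells were lowest with 324 ± 102. Nfkbid and Nfkbiz encode atypical nuclear I-kappa B proteins. Nfkbid averaged 381 ± 63.3 in gdT/ILC, 277 ± 143 in neutrophils and 251 ± 87.1 in B cells. The other 8 classes stayed below B cells without overlap, the highest of them being microglia with 109 ± 21.7, which overlapped with neutrophils.

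Nfkbiz averaged 263 ± 130 in gdT/ILC, 255 ± 48.6 in neutrophils and 224 ± 60.2 in microglia, which overlapped. In border-associated macrophages, outside the order because of their low number on day 14, Nfkbiz had 325 and 398 CPM on day 5. Tnfaip3 encodes A20, an enzyme that edits ubiquitin chains upstream of the kinase complex. Its 3 highest classes were lymphoid, namely gdT/ILC (451 ± 109), T cells (309 ± 78.5) and NK cells (236 ± 11.97). Nfkbie, which encodes I-kappa B epsilon, was highest in mature (86.8 ± 29.1) and other conventional dendritic cells (73.5 ± 15.9), which overlapped with each other and with no other class. Microglia were lowest for Nfkbie, with 11.7 ± 5.00.

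**Figure D1:**
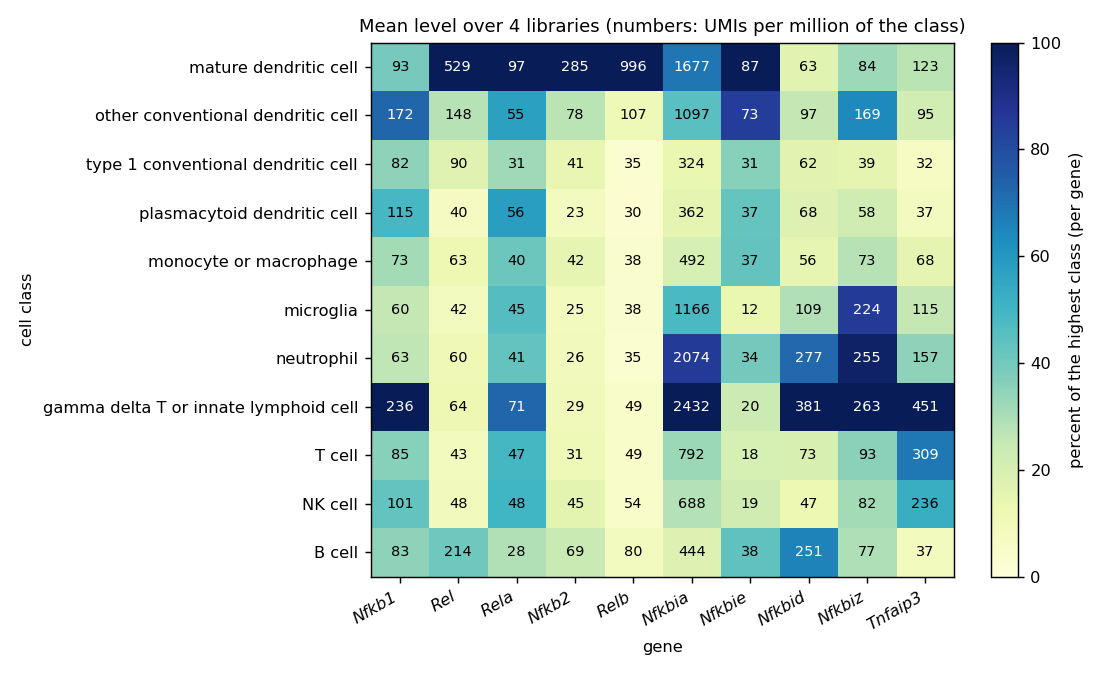
Levels of the 10 genes (columns) in 11 cell classes (rows), as the mean over 4 libraries. Numbers are CPM, and the colour gives the percent of the highest class of that gene. Relb stands out by its range, with 996 in mature dendritic cells and 107 in the next class.

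Over the 46 class and library sums with 20 or more cells, Nfkb2 went with Rel (Pearson r = 0.82) and Relb (r = 0.78), and Nfkbia with Nfkbiz (r = 0.79), on the log2(CPM + 10) scale. These sums share libraries and cell classes, so the coefficients are descriptions. Among 5318 genes, leaving out members and class markers, the 5 most like Relb were Il12b (r = 0.88), Zmynd15, Etv3, Eno3 and Tmem123 (r = 0.84). The 5 most like Nfkbia were Gadd45b (r = 0.76), Bcl2a1b, Ppp1r15a, Rhoc and Ifrd1 (r = 0.71). Among T cells of day 14, those with a Foxp3 UMI (44 and 24 cells) had 1260 and 1898 CPM of Nfkbia, and other CD4 T cells had 1169 and 937.

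Microglia held 2 clusters that differed widely in Nfkbia. In cluster 4, led by P2ry12 and Tmem119, Nfkbia had 1704 and 1255 CPM on day 14, against 1866 and 1879 on day 5. In cluster 3, led by Ttr, Cd5l and Mmp12, it had 179 and 57.9 on day 14 and 77.1 and 93.9 on day 5. Nfkbiz and Tnfaip3 showed the same order, with 108 to 367 CPM in cluster 4 for both genes over the 4 libraries, and 0 to 23.8 in cluster 3. The 15 immediate early and stress genes, which are known to respond to tissue dissociation, moved along: they summed to 14030 and 10440 (day 14) and 16630 and 17430 (day 5) in cluster 4, and 1417 and 1246 (day 14) and 648 and 766.5 (day 5) in cluster 3. Cells of cluster 3 were shallower, with a median depth of 0.66 times that of their libraries against 0.92 in cluster 4. The part of depth and of these genes was not tested, and stress genes took part in forming the clusters.

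Mature dendritic cells were set against all other conventional dendritic cells of the same libraries, with 61 and 94 mature cells on day 14 and 28 and 37 on day 5. Type 1 cells made up 102 of 264 and 178 of 445 of those other cells on day 14, and 44 of 419 and 56 of 413 on day 5. Of the 10 members, 7 rose in the mature cells and none fell, where 16.3% of all 7757 genes tested were called higher and 20.5% lower (edgeR quasi-likelihood test with the library as a block, Benjamini-Hochberg adjusted p under 0.05). Both non-canonical subunits were among the 7, and so were 2 of the 3 canonical subunits and 3 of the 5 inhibitors. The median log2 change was 1.02 over the members and -0.11 over all genes tested. The members took no part in clustering or naming, but Ccr7 and Ccl22, which name the mature class, are themselves known NF-kappa B targets.

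Relb had 1205 and 1037 (day 14) and 951 and 789.6 (day 5) CPM in mature cells, against 101.5 and 103 (day 14) and 57.5 and 63.1 (day 5) in the other conventional dendritic cells. Every mature value was far above every other value. The log2 difference was 3.69 ± 0.14 (SE), with an edgeR adjusted p of 2.76e-16, and the order held in 4 of 4 libraries.

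Nfkb2 had 300 and 348 (day 14) and 195 and 297 (day 5) in mature cells, against 80.9 and 76.1 (day 14) and 55.8 and 44.6 (day 5). Its log2 difference was 2.21 ± 0.18 (edgeR adjusted p = 3.3e-10). Rel followed with 577 and 428 (day 14) and 415 and 697 (day 5) in mature cells, against 138 and 111 (day 14) and 129 and 129 (day 5), a log2 difference of 2.10 ± 0.15 (edgeR adjusted p = 3.72e-11). For both genes the mature and the other cells did not overlap in any library.

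Rela differed less, with 122.5 and 100.1 (day 14) and 81.3 and 83.6 (day 5) in mature cells, against 49.8 and 49.7 (day 14) and 46.5 and 46.1 (day 5). Its log2 difference was 1.12 ± 0.21 (edgeR adjusted p = 0.000187), again without overlap. Nfkb1 was the subunit that did not pass, at -0.35 ± 0.24 (edgeR adjusted p = 0.273). It had 98.8 and 134 (day 14) and 73.2 and 65.0 (day 5) in mature cells, against 134.5 and 104 (day 14) and 182 and 171 (day 5), so that it was lower in mature cells of 3 of the 4 libraries.

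Among the inhibitors, Nfkbia had 1849 and 1767 (day 14) and 1374 and 1718 (day 5) in mature cells, against 767 and 730.1 (day 14) and 858 and 1055 (day 5). The classes did not overlap, and the log2 difference was 1.06 ± 0.13 (edgeR adjusted p = 4.11e-07). Nfkbie (0.66 ± 0.22, edgeR adjusted p = 0.0208) was higher in 3 of 4 libraries, with 56.9 in mature cells against 59.1 in day 5 library 1. Tnfaip3 (0.99 ± 0.27, edgeR adjusted p = 0.00518) was also higher in 3 of 4, with 46.4 against 108 in day 5 library 2. Type 1 cells on day 14 averaged 40.1 CPM of Nfkbie and 22.2 of Tnfaip3, against 86.6 and 82.3 in the conventional dendritic cells outside type 1. Nfkbie had 82.1 and 91.0 in the latter on day 14, against 90.9 and 125 in mature cells. The part of the larger share of type 1 cells on day 14 was not tested. Nfkbid (-0.37 ± 0.23) and Nfkbiz (-0.52 ± 0.21, edgeR adjusted p = 0.0583) did not pass, though both were lower in mature cells of 4 of 4 libraries. The calls of Nfkbie and Tnfaip3 ended without day 14 library 1 (adjusted p = 0.103 and 0.129) and without day 14 library 2 (0.306 and 0.237), and with DESeq2 (0.109 and 0.157), which called 5 of the 10. That of Nfkbie also ended without the filter on low counts (0.0708), and that of Tnfaip3 in thinned cells (0.078) and without the library block (0.0522).

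**Figure D2:**
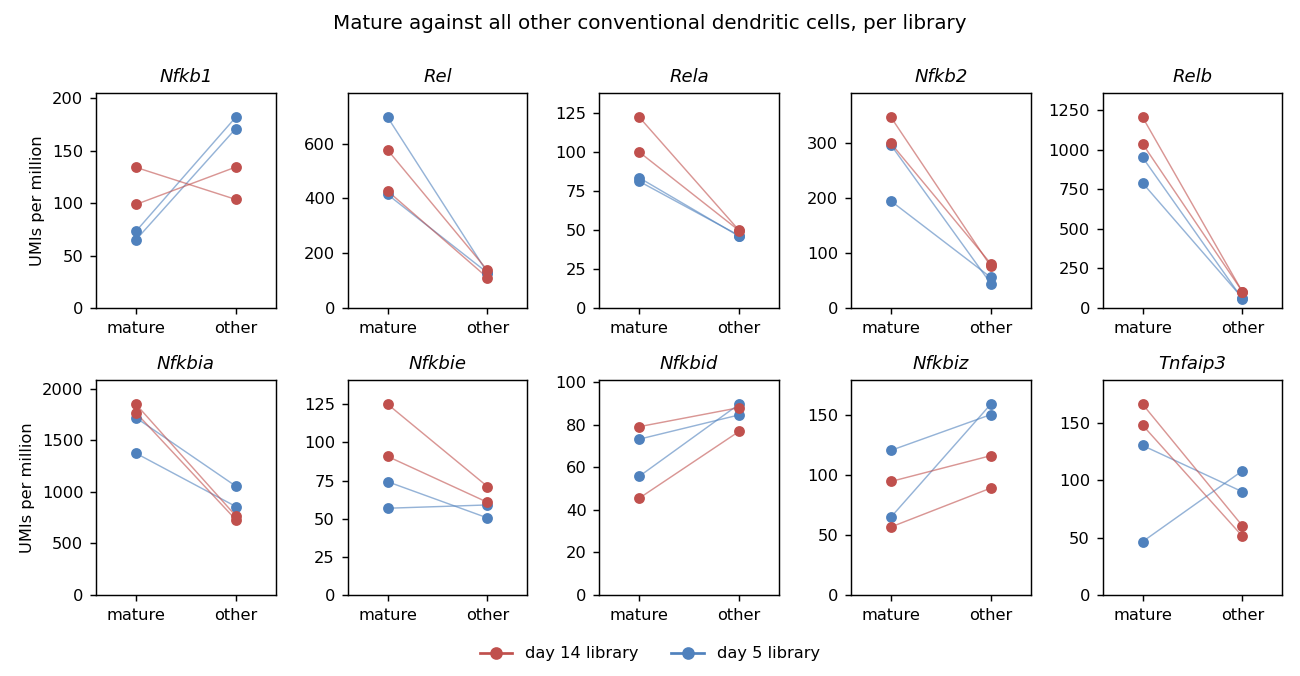
CPM of each gene in mature (left) and all other conventional dendritic cells (right), 1 panel per gene with its own axis from 0. Each line joins the classes of 1 library, red for day 14 and blue for day 5. Relb, Nfkb2, Rel, Rela and Nfkbia do not overlap between the classes.

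Other genes of the pathway also differed between these classes. Of 20 tested kinases, adaptors and other regulators, 7 rose and 1 fell, with a median log2 change of 0.32. Birc2, a ubiquitin ligase of the receptor complexes, rose by 3.87 ± 0.19, Nfkbib (I-kappa B beta) by 1.82 ± 0.17 and Map3k14, which encodes NIK, by 1.80 ± 0.17. Myd88, the adaptor of Toll-like receptors, was the gene that fell, at -2.00 ± 0.29. Of 8 tested receptors, 5 rose and 2 fell (median 2.05), among them Tnfrsf4 (OX40, 8.41 ± 0.34), Tnfrsf9 (4-1BB, 6.50 ± 0.37), Tnfrsf11a (RANK, 2.72 ± 0.30) and Cd40 (2.08 ± 0.19). In the other conventional dendritic cells, Tnfrsf4 was only at 0.68 CPM and Tnfrsf9 at 1.93 CPM. Of 18 textbook target genes, 11 rose and 2 fell (median 1.67), with the largest changes in Ccl22 (5.37 ± 0.17, a marker of the class), Ccl5 (5.27 ± 0.21), Il12b (5.26 ± 0.31) and Gadd45b (3.07 ± 0.15). The 15 immediate early and stress genes went the other way more often, with 3 higher and 7 lower (median -0.41), and Klf6 (2.95 ± 0.14) and Fos (-1.61 ± 0.14) at the ends of the range. The microglia list, 9 or 10 of 10 markers with UMIs, summed to 723 and 532 (day 14) and 2472 and 3075 CPM (day 5) in mature cells. It was at 729 and 668 (day 14) and 2320 and 2405 CPM (day 5) in the other conventional dendritic cells without those of type 1, and its part was not tested.

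Between the days, 96 of the 110 possible pairs of member and class passed the filter on low counts and were tested, with 11 higher and 3 lower on day 14. The calls lay in monocytes or macrophages, other conventional dendritic cells, neutrophils, NK cells, gdT/ILC and type 1 conventional dendritic cells. No member was called in T cells, where 0.455% of all genes were called, nor in B cells (1.56%), plasmacytoid dendritic cells (1.8%), mature dendritic cells (3.18%) or microglia (3.5%). At an unadjusted p under 0.05, edgeR gave 1 member in T cells, 0 in B cells, 2 in plasmacytoid dendritic cells, 1 in mature dendritic cells and 1 in microglia. DESeq2 called 0 in each of these 5 classes. Genes of the other lists were called there by edgeR. In microglia, 5 of 15 targets rose and none fell, among them Ccl5 (3.07 ± 0.21). Ikbkb and 3 of 14 immediate early and stress genes rose there as well. Cluster 4 made up 72.6% of microglia on day 14, against 46.4% on day 5, and within it the stress list was lower on day 14 (14030 and 10440 CPM, against 16630 and 17430). Monocyte or macrophage markers, 7 to 10 of 10 with UMIs, summed to 386 and 672 CPM in microglia on day 14, against 309 and 241 on day 5. The part of these was not tested. In mature dendritic cells, 2 of 14 targets (Il12b, Ccl22) and 2 of 5 receptors (Tnfrsf4, Cd40) rose, and Jun fell. T cell markers in these cells summed to 86.9 and 111 CPM on day 14 (10 and 9 of 12 with UMIs), against 16.3 and 0 on day 5 (1 and 0 of 12). Their part was not tested. Ccl5 fell in T cells, Btg2 in B cells and Jun in plasmacytoid dendritic cells.

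**Figure D3:**
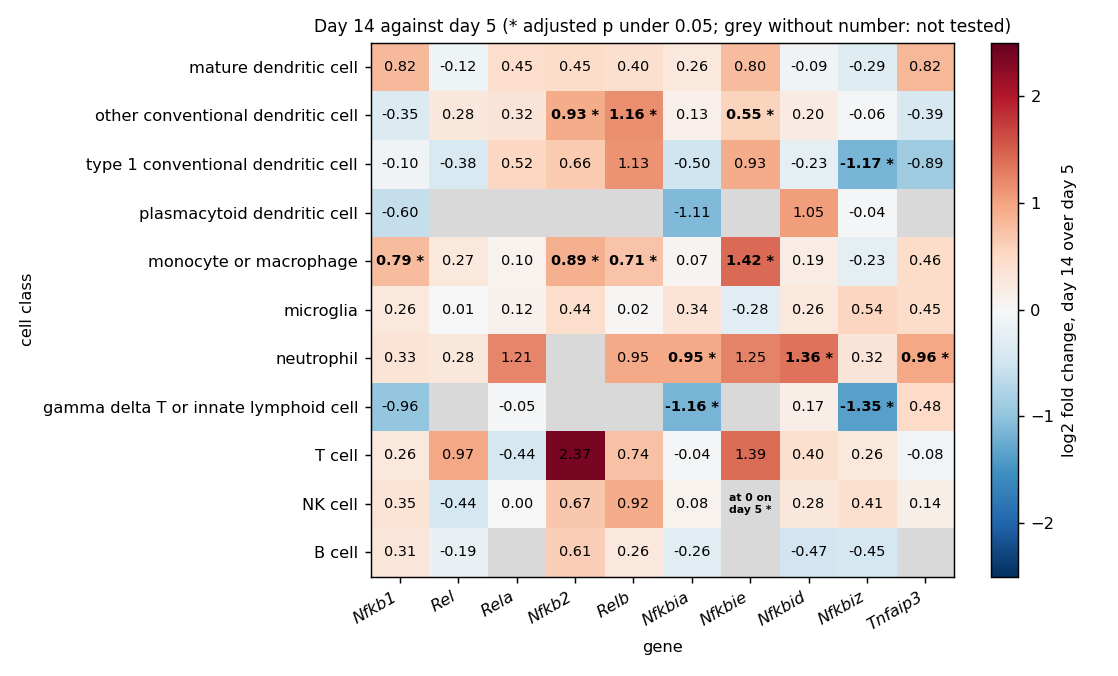
Log2 fold changes, day 14 over day 5, of the 10 genes (columns) in 11 cell classes (rows), red for higher and blue for lower on day 14. A star marks an edgeR adjusted p under 0.05, and grey fields without a number were not tested. Nfkbie in NK cells had no UMI on day 5 and has no fold. The starred fields with a number are red in monocytes or macrophages, other conventional dendritic cells and neutrophils, and blue in gdT/ILC (Nfkbia, Nfkbiz) and type 1 conventional dendritic cells (Nfkbiz).

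In monocytes or macrophages (290 and 604 cells on day 14, 432 and 450 on day 5), 4 of the 10 members rose and none fell, where 8.35% of all genes tested were called higher and 4.46% lower. Nfkb1 had 105 and 79.7 CPM on day 14, against 56.1 and 52.7 on day 5 (log2 change 0.79 ± 0.17, edgeR adjusted p = 0.00571). Nfkb2 had 57.3 and 51.2 on day 14, against 30.2 and 30.0 on day 5 (0.89 ± 0.17, edgeR adjusted p = 0.00337). These precursors of p50 and p52 thus did not overlap between the days.

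Relb had 45.5 and 46.9 on day 14, against 28.9 and 30.0 on day 5 (0.71 ± 0.18, edgeR adjusted p = 0.0158). Nfkbie had 53.4 and 53.5 on day 14, against 23.8 and 17.2 on day 5 (1.42 ± 0.20, edgeR adjusted p = 0.000205). Again the days did not overlap. The other 6 members ranged between -0.23 (Nfkbiz) and 0.46 (Tnfaip3).

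The class was made of different clusters on the days, and the members were also compared within them. Cluster 7, led by Ms4a7, Gpnmb and Arg1 among others, made up 5.37% of the cells on day 14, against 84.8% on day 5. Cluster 15, led by Ms4a4c and Ly6c2, made up 71.9% on day 14, against 12.7% on day 5. Cluster 17, led by Gpnmb, Arg1 and Cfb, made up 22.7% on day 14, against 2.49% on day 5. Within cluster 15, Nfkbie had 67.4 and 68.9 CPM on day 14, against 60.9 and 57.4 on day 5, a log2 change of 0.25 ± 0.28. Within cluster 7 it had 8.94 and 7.55 on day 14, from 1 UMI in each library, against 20.01 and 12.5 on day 5. None of the 10 members was called within cluster 15, where 1.1% of all genes were, or within cluster 7 (1.59%). Nfkb2 (1.32 ± 0.47) and Relb (1.20 ± 0.45) were higher on day 14 within cluster 7, but with edgeR adjusted p of 0.218 and 0.245.

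The pathway lists in this class held 3 of 21 regulators that rose and none that fell (median 0.19, against -0.002 over all genes), namely Ikbkb (0.98 ± 0.16), Bcl3 (0.69 ± 0.20) and Myd88 (0.67 ± 0.15). Of 7 receptors tested, Cd40 rose (1.55 ± 0.18). Of 16 targets tested, 7 rose and 2 fell (median 0.54), with Ccl5 (1.83 ± 0.22), Traf1 (1.77 ± 0.27), Ptgs2 (1.66 ± 0.19) and Il1b (1.35 ± 0.13) the largest. Of 15 immediate early and stress genes 2 rose and 3 fell, with Egr1 (-1.13 ± 0.21) and Jun (-1.12 ± 0.19) changing most. Microglial markers, 10 of 10 with UMIs, summed to 1345 and 1303 CPM on day 14, against 3076 and 4042 on day 5, and their part was not tested. Relb lost its call without day 5 library 1 (adjusted p = 0.0842) and without day 14 library 2 (0.0867). Nfkb1, Nfkb2 and Relb all lost theirs with DESeq2 (adjusted p of 0.0502, 0.0736 and 0.296), at a finer clustering (0.0796, 0.249 and 0.178) and with every cell thinned to 1000 UMIs (0.34, 0.418 and 0.465).

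In other conventional dendritic cells (162 and 267 cells on day 14, 375 and 357 on day 5), 3 of the 10 members rose and none fell, where 7.21% of all genes tested were called higher and 6.21% lower. Relb had 149 and 144.5 CPM on day 14, against 63.2 and 70.7 on day 5 (1.16 ± 0.14, edgeR adjusted p = 2.11e-06). Nfkb2 had 114.5 and 90.3 on day 14, against 59.5 and 46.5 on day 5 (0.93 ± 0.17, edgeR adjusted p = 0.000434). Nfkbie had 82.1 and 91.0 on day 14, against 64.6 and 56.2 on day 5 (0.55 ± 0.16, edgeR adjusted p = 0.0244). So both non-canonical subunits and 1 inhibitor were higher on day 14, without overlap between the days. The uncalled members ranged between -0.39 (Tnfaip3) and 0.32 (Rela). Nfkb1 averaged 152 on day 14, against 193 on day 5 (-0.35 ± 0.14, edgeR adjusted p = 0.0994). Tnfaip3 averaged 82.3 on day 14, against 109 on day 5 (-0.39 ± 0.15, edgeR adjusted p = 0.0995). These also did not overlap between the days.

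Cluster 6, led by Cd209a and Ccl17, made up 90.2% of these cells on day 14, against 24.3% on day 5. Cluster 5, led by Epcam and Mgl2, made up 9.79% on day 14, against 75.7% on day 5. Within cluster 6, where 2.69% of all genes were called, Relb alone of the members passed. It had 152 and 142 CPM on day 14, against 74.8 and 83.7 on day 5 (0.97 ± 0.20, edgeR adjusted p = 0.0164). Nfkb2 was at 0.59 ± 0.26 (edgeR adjusted p = 0.363) there.

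Of 21 regulators, 4 rose and none fell (median 0.26), namely Bcl3 (1.29 ± 0.18), Traf2 (1.05 ± 0.28), Ikbkb (0.64 ± 0.12) and Nfkbib (0.48 ± 0.16). Cd40 was the receptor of 7 tested that rose (1.48 ± 0.17). Of 18 targets, 8 rose and 2 fell (median 0.31), among them Ccl22 (2.11 ± 0.25), Il6 (1.83 ± 0.49) and Ccl5 (1.76 ± 0.22). Il12b passed with 28 and 16 UMIs on day 14 and 0 and 3 UMIs on day 5. Of 15 immediate early and stress genes 4 rose and none fell, among them Hspa1a (1.01 ± 0.16) and Zfp36 (0.59 ± 0.12). The 9 markers of mature dendritic cells summed to 289 and 391 CPM on day 14, against 84.1 and 89.4 on day 5, with 8 of 9 having UMIs and Apol7c at 0 in all 4 libraries. The same sum was 11860 and 13710 on day 14 in mature cells, and the part of mature cells among the other conventional dendritic cells was not tested. The monocyte or macrophage markers, 9 or 10 of 10 with UMIs, summed to 5193 and 6840 CPM (day 14), against 1751 and 1998 CPM (day 5), with Vcan at 0 in both day 5 libraries and Arg1 at 0 in day 14 library 1. Their part was not tested. The call of Nfkbie ended without day 5 library 2 (adjusted p = 0.227), without day 14 library 2 (0.229), at the finer clustering (0.0653), in thinned cells (0.59), with DESeq2 (0.39) and without cells of high doublet scores (0.196). Nfkb2 ended only in thinned cells (0.27), and Relb was called under every setting tried.

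**Figure D4:**
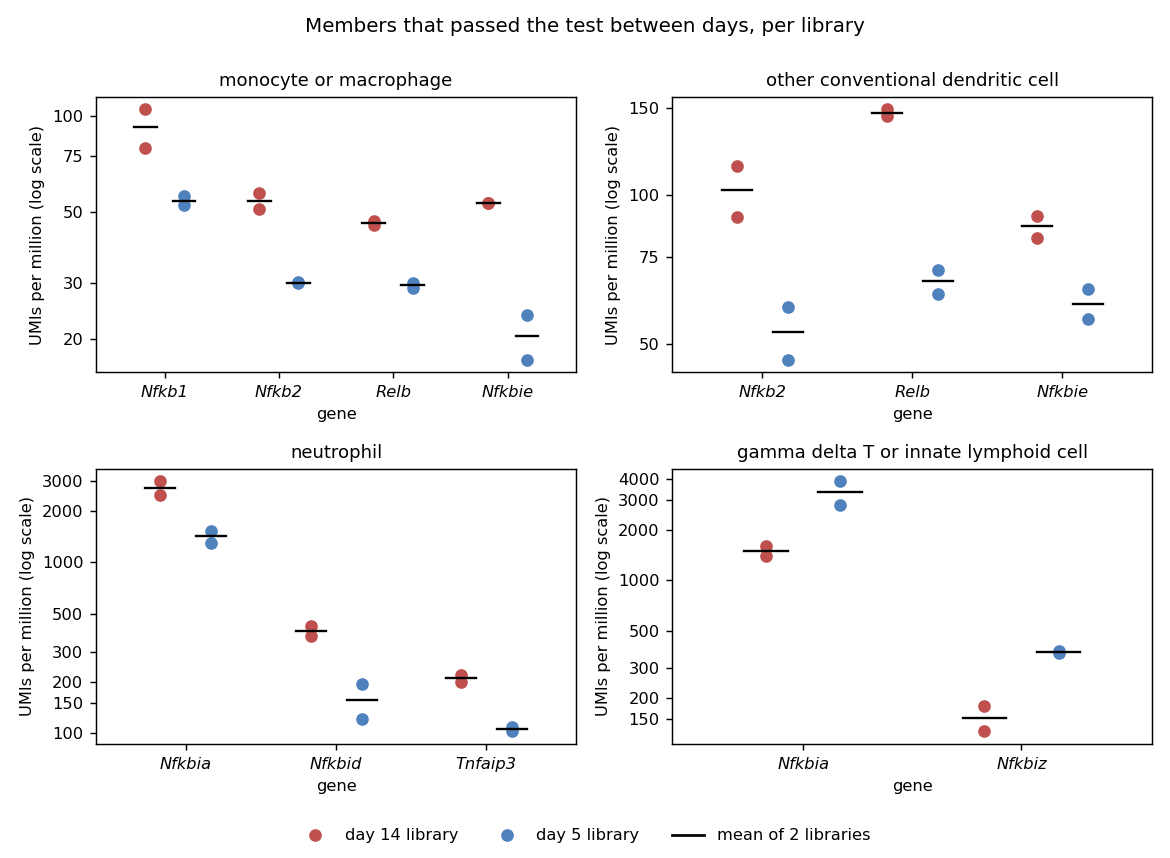
CPM (log axis) of the members that passed the test between days, in 4 classes. Each point is 1 library, day 14 in red on the left and day 5 in blue on the right, and black bars are the means of 2 libraries. The days do not overlap for any gene shown, and day 14 is lower in the gdT/ILC panel only.

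In neutrophils (88 and 72 cells on day 14, 216 and 267 on day 5), 3 of the 9 members tested rose, all of them inhibitors, and none fell, where 10.6% of all genes tested were called higher and 4.97% lower. Nfkbia had 2485 and 2983 CPM on day 14, against 1526 and 1303 on day 5 (0.95 ± 0.17, edgeR adjusted p = 0.00272). Nfkbid had 369 and 423 on day 14, against 193.5 and 121 on day 5 (1.36 ± 0.22, edgeR adjusted p = 0.00156). Tnfaip3 had 218 and 199.8 on day 14, against 102.5 and 109 on day 5 (0.96 ± 0.23, edgeR adjusted p = 0.0161). None of the 3 overlapped between the days. The uncalled members tested also had positive changes, between 0.28 (Rel) and 1.25 (Nfkbie), so the direction was not particular to inhibitors. Nfkbie (1.25 ± 0.39), Rela (1.21 ± 0.43) and Relb (0.95 ± 0.41) had edgeR adjusted p of 0.0534, 0.0842 and 0.15. At an unadjusted p under 0.05, edgeR gave 6 of the 9. Nfkb2 was not tested in this class.

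Cluster 16, led by the granule genes Camp, Ngp and Ltf, held 0.62% of the neutrophils on day 14 and 28.2% on day 5. Nfkbia had 1025 and 872 CPM in that cluster on day 5. Within cluster 9, with 99.4% of the neutrophils on day 14, against 71.8% on day 5, and where 687 of 3442 genes were called, all 3 inhibitors passed. Their log2 changes there were 0.76 ± 0.14 for Nfkbia, 1.10 ± 0.20 for Nfkbid and 0.89 ± 0.25 for Tnfaip3 (edgeR adjusted p of 0.00106, 0.000668 and 0.017). Nfkbiz passed as well within cluster 9 (0.81 ± 0.24, edgeR adjusted p = 0.0225), though in the whole class it was at 0.32.

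Targets moved broadly in neutrophils, with 12 of 15 higher and none lower (median 1.73, against -0.02 over all genes). The largest were Ccl5 (3.03 ± 0.49), Gadd45b (2.79 ± 0.22), Ptgs2 (2.23 ± 0.21) and Ccl4 (2.22 ± 0.18). Of 12 regulators, 3 rose, namely Tnip1, which binds A20 (1.69 ± 0.42), Bcl3 (1.44 ± 0.38) and Myd88 (1.02 ± 0.28), and of 4 receptors Tnfrsf1b (1.70 ± 0.33) and Tlr2 (1.12 ± 0.26) rose. Of 14 immediate early and stress genes 6 rose, led by Ier3 (2.16 ± 0.23), and the whole list summed to 13880 and 14490 CPM on day 14, against 8751 and 7938 on day 5. Neutrophil markers summed to 35460 and 37410 on day 14 and 98420 and 212700 on day 5 (10 to 13 of 13 with UMIs, with Ly6g, Camp and Ngp at 0 in day 14 library 2). Microglial markers summed to 1738 and 1403 on day 14 and 5552 and 4482 on day 5 (9 or 10 of 10 with UMIs). The part of these in the result was not tested. Tnfaip3 lost its call without day 14 library 1 (adjusted p = 0.123), without day 14 library 2 (0.0926) and with DESeq2 (0.152).

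**Figure D5:**
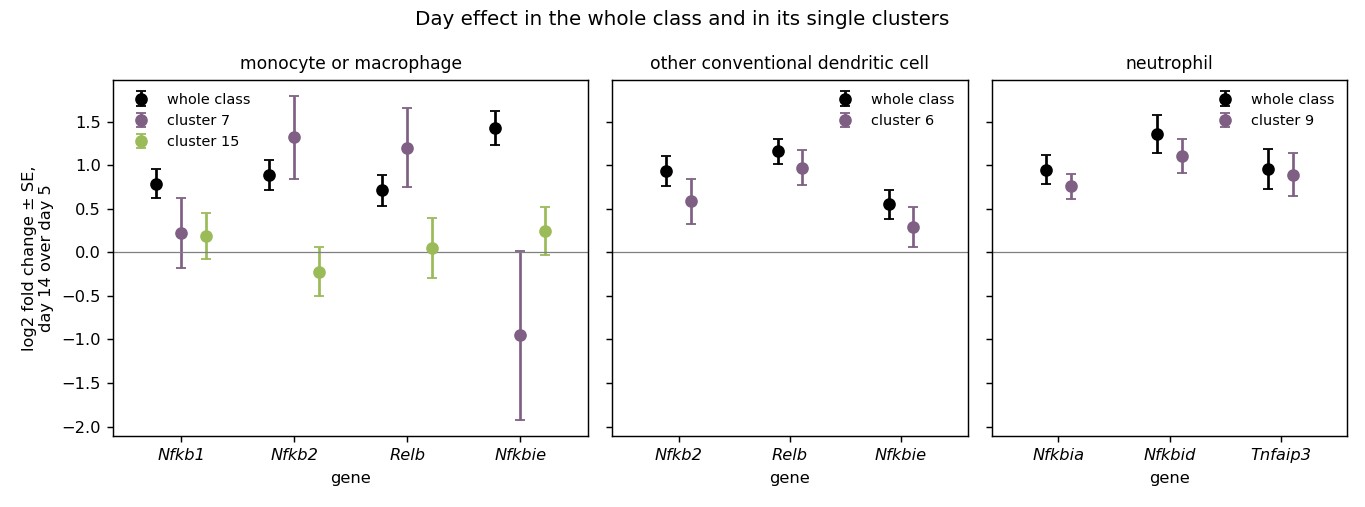
Log2 fold change, day 14 over day 5, with its SE, for members that passed in the whole class (black), beside the same value within single clusters (colours). In monocytes or macrophages the values of cluster 15 lie near 0, between -0.22 and 0.25. In neutrophils the values of cluster 9 stay between 0.76 and 1.10.

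In gdT/ILC, 2 of the 6 members tested fell and none rose, where 3.36% of all genes tested were called lower and 4.31% higher. The class had 263 and 104 cells on day 14, but only 23 and 22 on day 5. When cells under 1317 UMIs were left out, to give both days the same lowest depth, these 2 falls were not tested. Nfkbia had 1397 and 1594 CPM on day 14, against 2823 and 3913 on day 5 (-1.16 ± 0.14, edgeR adjusted p = 3.79e-07). Nfkbiz had 126 and 177 on day 14, against 381 and 368 on day 5 (-1.35 ± 0.35, edgeR adjusted p = 0.00983). Both were lower in each day 14 library than in each day 5 library. Tnfaip3 did not go along, with 514.5 and 527 on day 14 and 291 and 473 on day 5 (0.48, not called).

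The immediate early and stress genes fell in the same class, 7 of 11 tested with none higher (median -0.80, against 0.005 over all genes), led by Egr1 (-3.57 ± 0.53), Jun (-1.61 ± 0.30), Ier2 (-1.19 ± 0.19) and Fos (-0.99 ± 0.19). Their list summed to 8864 and 10340 CPM on day 14, against 15350 and 17880 on day 5. Egr1 rested on few counts, with 7 and 7 UMIs on day 14 and 6 and 13 UMIs on day 5. None of 3 regulators was called. Of 11 targets 1 rose (Ccl5, 2.80 ± 0.57) and 2 fell, the chemokines Ccl4 (-4.36 ± 0.49) and Ccl3 (-3.20 ± 0.52). Microglial markers, 7 to 9 of 10 with UMIs, summed to 278 and 276 on day 14 and 762 and 919 on day 5, with Sall1 at 0 in 3 of the 4 libraries. Mast cell or basophil markers were at 2022 in day 5 library 2, with 6 of 7 having UMIs and Mcpt4 at 0, and at 0 to 1.88 in the other libraries. The part of these in the result was not tested. Nfkbia was called in each of 4 fits without 1 library (-1.21 to -0.77), while Nfkbiz was called in none of them (-1.49 to -1.08), nor with DESeq2 (adjusted p = 0.0851), without the filter on low counts (0.188) or in thinned cells (0.227).

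In type 1 conventional dendritic cells (102 and 178 cells on day 14, 44 and 56 on day 5), Nfkbiz fell and was the only one of 10 members called, where 2.96% of all genes tested were called lower and 2.55% higher. It had 20.5 and 25.6 CPM on day 14, against 56.3 and 55.5 on day 5 (-1.17 ± 0.33, edgeR adjusted p = 0.0336). The call was lost in each of 4 fits without 1 library, with DESeq2 (adjusted p = 0.614), without the filter on low counts (0.0553), without cells of high doublet scores (0.0529) and with a replicate block (0.0589). Mast cell or basophil markers were at 1093 CPM in day 5 library 2 (6 of 7 with UMIs) and at 0 in the other 3 libraries. Microglial markers, 10 of 10 with UMIs, summed to 430 and 342 CPM (day 14), against 944 and 809 CPM (day 5). The part of both lists was not tested. Of 14 targets, Ccl5 rose, with means of 138 CPM on day 14 and 4.49 CPM on day 5, while Ccl3 (-1.92 ± 0.45) and Ccl4 (-1.02 ± 0.22) fell. Of 13 regulators Ikbkb rose (0.86 ± 0.21), of 3 receptors Tlr2 fell (-2.27 ± 0.50), and of 14 immediate early and stress genes Jun fell (-1.19 ± 0.29).

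In NK cells (292 and 270 cells on day 14, 117 and 128 on day 5), Nfkbie rose and was the only one of 10 members called, where 4.21% of all genes tested were called higher and 1.84% lower. It had 32.2 and 43.9 CPM on day 14 and 0 UMIs in both day 5 libraries. The edgeR adjusted p was 0.000455. A floor of 3 UMIs per day 5 library, which covers counting error only, averaged 16.2 CPM. The day 14 mean of 38.0 CPM was 2.35-fold above it. This ratio of means leaves out the error of the day 14 counts and is not a lower limit. Without either day 14 library the gene did not pass the filter on low counts. B cell markers summed to 231 and 233.5 CPM on day 14 (7 or 8 of 10 with UMIs) and 68.9 and 94.1 on day 5 (2 of 10), with Fcmr at 0 in all 4 libraries, and their part was not tested. Of 13 targets tested in NK cells none rose and 3 fell, namely the chemokines Ccl5 (-2.09 ± 0.16), Ccl3 (-1.92 ± 0.19) and Ccl4 (-1.70 ± 0.15). Of 15 regulators Tab2 rose (1.74 ± 0.37), none of 3 receptors was called, and of 13 immediate early and stress genes Ier2 fell (-0.69 ± 0.16).

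Because monocytes or macrophages had calls and microglia had none, the difference of the day effects was tested itself. Of the 10 members 0 were called (edgeR, class by day interaction with the library as a block), where 2.41% of 9628 genes were. At an unadjusted p under 0.05 there were 4, and DESeq2 called 0. Nfkbie differed most, with 4.91 and 16.97 CPM in microglia on day 14 and 12.8 and 11.9 on day 5, against the values above in monocytes or macrophages. Its difference of log2 changes was -1.73 ± 0.50 (edgeR adjusted p = 0.0721), microglia over monocytes or macrophages. Nfkb1 (-0.57 ± 0.25), Relb (-0.71 ± 0.31) and Nfkbiz (0.65 ± 0.28) had adjusted p of 0.296, 0.299 and 0.294. The microglia were spread over their clusters unequally, with cluster 3 at 27.4% of the class on day 14, against 53.6% on day 5, and cluster 4 at 72.6% on day 14, against 46.4% on day 5. Nfkbia was at 0.34 ± 0.18 between days in the whole class and at -0.17 ± 0.14 within cluster 4, neither of them called. Within cluster 4, where 5.68% of all genes were called between days, no member was called.

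The opposite directions of Nfkbia in neutrophils and in gdT/ILC were tested in the same way, in a fit added after they had been seen. Of the 10 members, Nfkbia (1.89 ± 0.21, edgeR adjusted p = 5.07e-16) and Nfkbiz (1.49 ± 0.42, edgeR adjusted p = 0.0202) had a higher day effect in neutrophils, where 1.58% of all genes were called in that direction.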

How the data were processed

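Single-cell RNA was profiled in 4 libraries of sorted CD45high cells (10x Genomics Single Cell 3' v2). The authors deposited raw UMI counts per gene and cell barcode. Cell Ranger 3.0.1, Seurat 2.3.4 and GRCm38 (mm10) are named in the submitters' processing notes. The members and lists were chosen with earlier results of these data known.

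Barcodes with 200 or more genes were clustered with scanpy 1.11.5 (2000 variable genes without the members, 30 components, 20 neighbours, Leiden resolution 1). The 81 with over 10% mitochondrial UMIs took part in clustering and naming and were left out afterwards. A class name needed 3 markers at 50 CPM, 1 of them among 20 leading genes. Scrublet called 10 barcodes (0.092%), so it had not worked, and 576 mixed cells were left out by marker UMIs. Clusters where over 50% of cells scored above 0.1 in Scrublet stayed unnamed, as did 1 led by azurophil granule genes, rules set after the data were seen.

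UMI counts were summed per class and library and tested with edgeR 4.0.16 (TMM, filterByExpr, quasi-likelihood) in R 4.3.3, two-sided, Benjamini-Hochberg over all genes tested. DESeq2 1.42.0 was an alternative. The code was tested on simulated data. All 10 members are named. From each list, at most 4 called genes are named per class, mostly those with the largest log2 change, and some called genes are not named. Alternatives were other normalization, filters, clustering, thinning to 1000 UMIs, mixed cells kept, and leaving out each library. The fits within clusters and an interaction test of neutrophils against gdT/ILC were added after seeing the data.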

Additional observations from a re-analysis of the deposited data

Results flagged for a closer look

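The day effect of Nfkbia differed between gamma delta T or innate lymphoid cells (gdT/ILC) and neutrophils. It was higher on day 14 in neutrophils (0.95 ± 0.17 on the log2 scale) and lower in gdT/ILC (-1.16 ± 0.14). The difference between these changes was 1.89 ± 0.21 (edgeR adjusted p = 5.07e-16, class by day interaction over 4443 genes). Nfkbiz differed in the same direction by 1.49 ± 0.42 (edgeR adjusted p = 0.0202), with 0.32 in neutrophils, which was not called, and -1.35 in gdT/ILC. The median difference over all genes in this fit was -0.26. The immediate early and stress genes differed in the same direction, with 8 of 14 called higher and none lower, and their part was not tested. The test was added after the opposite directions had been seen.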

How the results depend on the processing

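The fits within single clusters are not counted among the alternatives here. No direction of the 21 named member changes reversed under any alternative, and 11 of them kept their call under every alternative in which they were tested. Within clusters of monocytes or macrophages, Nfkb2 was at -0.22 ± 0.28 in cluster 15 and Nfkbie at -0.95 ± 0.97 in cluster 7, neither called. Nfkb2 in cluster 7, Nfkbie in cluster 15, and Nfkb1 and Relb in both clusters kept the direction of the whole class. Between days, the 11 members called higher were 6 with DESeq2 and 5 after thinning to 1000 UMIs, which left out 515 shallower cells and where only 56 pairs of member and class could be tested. They were 9 to 11 with a library left out. The 3 called lower were 1 with DESeq2, 1 without cells under 1317 UMIs, where the 2 in gdT/ILC were not tested and Nfkbiz in type 1 conventional dendritic cells was still called, and 1 to 5 with a library left out, namely 5 without day 5 library 1, 2 without day 14 library 1, and 1 without either of the other libraries. In mature dendritic cells, the count called lower was 0 and became 1 without the filter on low counts, 1 in thinned cells, 1 without cells of high doublet scores, and 0 to 1 with a library left out (1 without day 14 library 2). The count called higher was 5 to 7 with a library left out. The members whose day effect differed between microglia and monocytes or macrophages were 0, and 1 without the filter, 1 without cells of high doublet scores, and 0 to 1 with a library left out (1 without day 14 library 2 or day 5 library 1). Apart from the smaller number of tests named, the cause of these shifts was not tested. The class with the highest level was the same for 9 of 10 members by the share of thinned cells with a UMI, but for 5 of 10 by the unthinned share, where Nfkb1, Nfkbia, Nfkbie, Nfkbiz and Tnfaip3 were highest in other classes.

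Replicate numbers are shared across days but nothing ties them to a common mouse or batch. The correlation of same-numbered libraries ran between -0.181 and 0.038 over the classes. With 2 libraries per day it cannot tell whether they share a batch, and the main fits between days assumed no pairing. With a replicate block, 11 members were called higher and 2 lower, and the crossed pairing gave 11 and 3. Without the library block, 6 members were called higher in mature dendritic cells.

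Where a fit left 1 library on a day, that library was assumed to vary like the other day's. Small classes limit depth most: gdT/ILC had 44629 and 38080 UMIs in all on day 5, where 3 UMIs are 67.2 and 78.8 CPM.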
